A study of Mus musculus with 12 samples.

Results

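The genes described here are 9 members of the IL-1 receptor family and its MyD88 relay in lung group 2 innate lymphoid cells (ILC2s), lymphocytes of tissues that make type 2 cytokines and carry no antigen receptor. They were taken by gene symbol. They are 6 receptor chains (Il1rl1, Il1rap, Il18r1, Il18rap, Il1r2 and Il1r1), the adaptor Myd88, and Irak2 and Irak3 of the IRAK kinase family. All 9 are listed among the 21361 genes of the table for sorted cells, and 8 of them among the 18601 genes of the WT and LAIR-1 KO table, where Il1r1 is not listed. LAIR-1 is a collagen-binding inhibitory receptor, and the study asked how ILC2s with and without it differ.

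RNA was sequenced from 12 libraries in 4 groups of 3, all from C57BL/6 mice 8 weeks old. Every mouse had received recombinant IL-33 into the nose 3 times, at 0.5 µg per mouse, and the sorted lung ILC2s were then cultured for 24 hours in IL-2 and IL-7, each at 10 ng per mL. The labels do not say how the LAIR-1 KO allele was made. In the first experiment ILC2s of WT mice (libraries 9, 10 and 11) were set against ILC2s of LAIR-1 KO mice (libraries 13, 14 and 15). In the second, ILC2s of WT genotype were split by surface LAIR-1 into LAIR-1+ cells (libraries 1, 2 and 3) and LAIR-1- cells (libraries 7, 8 and 10). All groups thus shared the IL-33 exposure and the culture, and no group without IL-33 is among them. The labels do not say whether libraries of a group came from separate animals, so p-values measure only the spread between these samples, which may be technical.

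IL-33 binds ST2, the product of Il1rl1, which pairs with the accessory chain encoded by Il1rap. The paired receptor tails recruit MyD88, which gathers IRAK kinases into a complex that leads to TRAF6, NF-κB and p38. The IL-1 and IL-18 receptors use the same relay, and lung ILC2s are known for strong ST2 expression and for their response to IL-33.

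The WT and KO libraries held 18061470 to 20878649 estimated counts and the sorted libraries 18885002 to 28290487. Levels are given in CPM, counts scaled to library size with TMM factors. Lair1 itself was at 3.75, 11.1 and 7.66 CPM in the WT libraries and at 0.427 and 0 CPM in KO 13 and KO 14. In the library labelled KO 15 it was at 3.28 CPM, close to the lowest WT library. Lair1 did not pass in KO against WT (log2 fold change −2.59, edgeR quasi-likelihood test, adjusted p = 0.715). Between the sorted fractions it was at 8.71 to 12.4 CPM in LAIR-1+ and 0.577 to 1.95 CPM in LAIR-1- cells (edgeR quasi-likelihood test, adjusted p = 0.000346). All 14 markers of an ILC2 list were present in both tables, with summed levels of 10451 to 16566 CPM over the 12 libraries. Il5 alone was at 3469 to 9845 CPM. In KO against WT 0 of the 14 passed an adjusted p of 0.05. Between the sorted fractions 4 did, where 4.01% of all genes passed. Klrg1, Il2ra and Icos were higher in LAIR-1- cells (log2 fold change 0.57, 0.43 and 0.31), and Arg1 was lower (−0.28). The typical spread between replicates, as edgeR's biological coefficient of variation, was 0.505 in the WT and KO libraries and 0.135 in the sorted ones.

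Most of the family did not differ detectably with LAIR-1. In KO against WT, 0 of the 8 listed members passed an adjusted p of 0.05 in edgeR's quasi-likelihood test, where 0.00706% of all 14164 genes tested passed. At an unadjusted p under 0.05, 1 member and 1186 genes did, and DESeq2 called 1 member and 2.17% of all genes. In LAIR-1- against LAIR-1+ cells, 1 of the 8 members tested passed, where 4.01% of 14261 genes did, 2.71% as lower in LAIR-1- cells. That gene was Il18rap, the accessory chain of the IL-18 receptor, which fell in LAIR-1- cells. The strongest separation in KO against WT was that of Il1r2, a decoy for IL-1, at 2.63 times the WT level, although its adjusted p of 0.141 did not pass. The change of Il1r2 differed between the 2 comparisons, and that difference passed its own test, in a fit that pools 2 experiments of unlike spread.

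**Figure D1:**
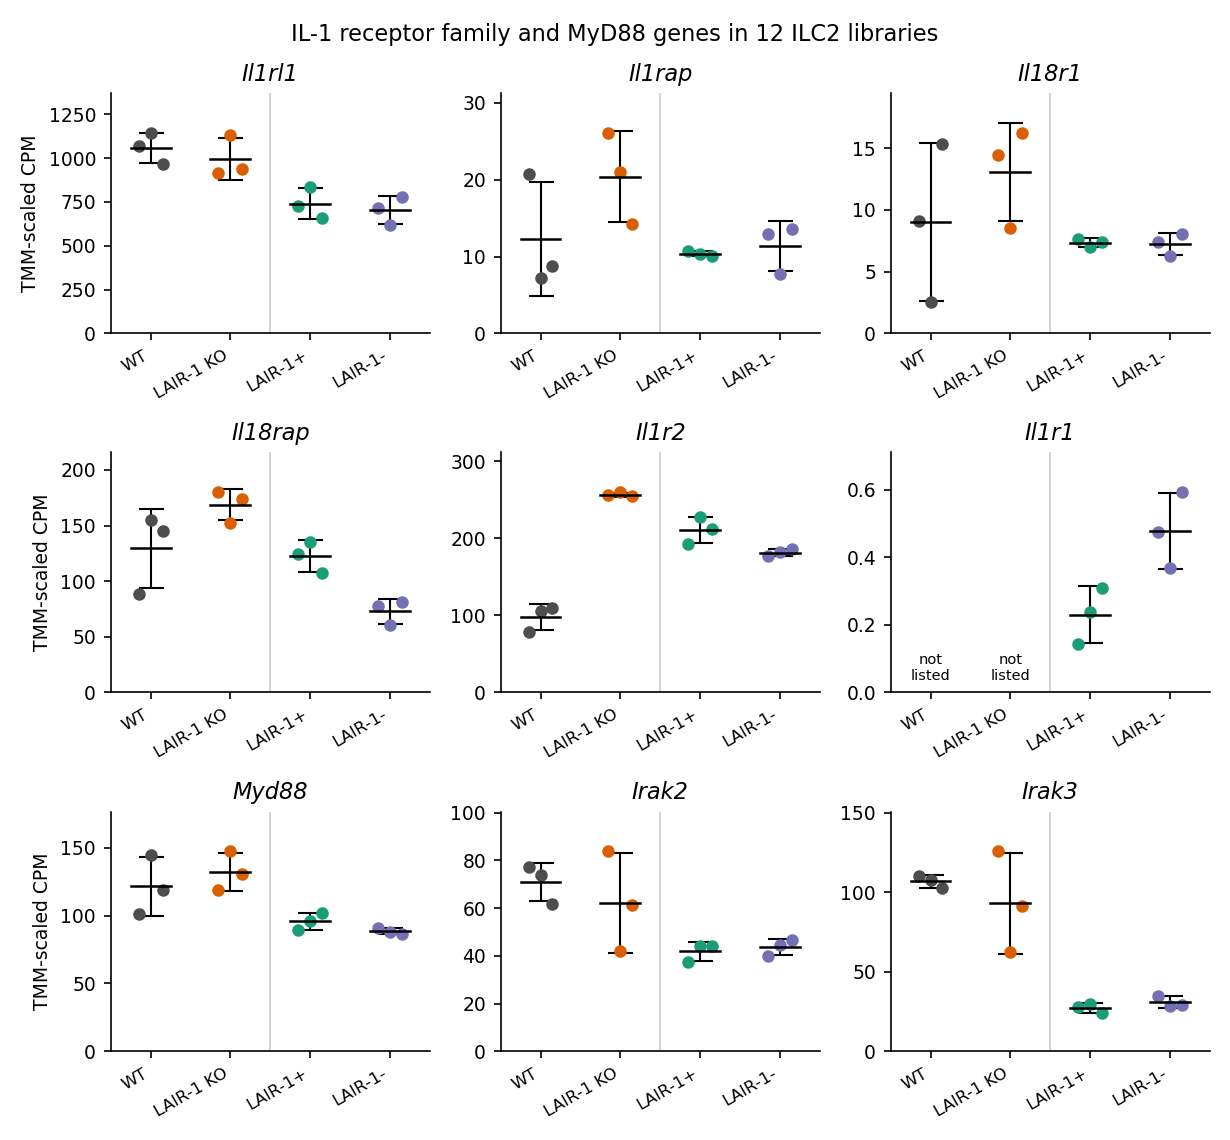
TMM-scaled CPM of the 9 genes (vertical axes, each from 0 and on its own scale) in the 4 groups, with each point 1 library, the horizontal line the group mean and the bars the SD (n = 3). Il1r2 sits at 254 to 259 CPM in LAIR-1 KO and 77.8 to 109 CPM in WT libraries, and Il18rap is lower in every LAIR-1- than in every LAIR-1+ library; the grey line separates 2 experiments with their own tables and scaling.

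The members lie on 5 chromosomes, and 5 of them form 1 receptor cluster on the plus strand of chromosome 1 (positions in GRCm38, from GENCODE M21). In order these are Il1r2 (chr1:40074079-40125231), Il1r1 (chr1:40225080-40317257), Il1rl1 (chr1:40429570-40465415), Il18r1 (chr1:40465552-40500854) and Il18rap (chr1:40515362-40551705), with Il1rl2, a receptor of IL-36, between Il1r1 and Il1rl1. Il1rl1 ends 136 bases before Il18r1 starts, and 14507 bases separate Il18r1 from Il18rap. The other members are Il1rap (chr16:26581704-26730117, plus strand), Myd88 (chr9:119335934-119341411, minus), Irak2 (chr6:113638467-113695026, plus) and Irak3 (chr10:120141648-120202130, minus).

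The promoter sequences below, 250 bases before each RefSeq start (RefSeq, GRCm38.p6, plus strand), are shown for Il1r2 and Il18rap, which carried the differences, and for the 2 starts of Il1rl1, their neighbour in the cluster, which did not pass in either comparison. Capitals mark matches on either strand to GATAA, the core of sites for GATA factors such as GATA3 of ILC2s, to CACGTG, the E-box, or to TTCNNNGAA, the core of STAT sites. The RefSeq start of Il1r2 lies inside the GENCODE span of the gene, downstream of its first base.
Il1r2 (chr1:40085843-40086092): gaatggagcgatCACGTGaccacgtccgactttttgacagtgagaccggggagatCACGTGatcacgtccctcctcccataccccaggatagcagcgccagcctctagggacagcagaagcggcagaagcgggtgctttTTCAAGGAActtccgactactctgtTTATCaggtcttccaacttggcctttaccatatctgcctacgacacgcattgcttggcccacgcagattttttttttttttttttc
Il18rap (chr1:40515112-40515361): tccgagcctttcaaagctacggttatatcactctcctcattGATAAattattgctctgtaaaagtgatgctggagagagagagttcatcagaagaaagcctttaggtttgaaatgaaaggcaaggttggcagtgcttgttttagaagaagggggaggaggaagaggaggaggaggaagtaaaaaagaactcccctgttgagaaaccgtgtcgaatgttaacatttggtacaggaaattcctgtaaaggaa
Il1rl1, first start (chr1:40429320-40429569): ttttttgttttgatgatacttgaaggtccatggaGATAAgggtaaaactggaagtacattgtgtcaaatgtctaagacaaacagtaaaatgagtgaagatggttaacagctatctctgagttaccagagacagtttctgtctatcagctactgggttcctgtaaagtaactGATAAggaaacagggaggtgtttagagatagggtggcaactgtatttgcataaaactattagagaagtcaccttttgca
Il1rl1, second start (chr1:40439379-40439628): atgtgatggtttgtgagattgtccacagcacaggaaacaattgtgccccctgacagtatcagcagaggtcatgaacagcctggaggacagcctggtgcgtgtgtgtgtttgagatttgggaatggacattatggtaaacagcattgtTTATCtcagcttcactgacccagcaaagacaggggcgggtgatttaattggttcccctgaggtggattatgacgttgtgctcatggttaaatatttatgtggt

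The 9 members have 14 promoters in the RefSeq table. GATAA was found in 5 of them, of 4 members, and in 22.6% of all 32851 promoters. Il1r2 has 1 at position −86, Il18rap 1 at −209 and Irak3 1 at −121. Il1rl1 has 2 at its first start and 1 at its second. CACGTG was found in 1 member promoter, that of Il1r2, with copies at −238 and −195, and in 6.02% of all promoters. TTCNNNGAA was found for Il1r2 at −111 and also for Il18r1 and Myd88, and in 7.02% of all promoters. The AP-1 motif TGANTCA was in 0 of the 14 and in 6.75% of all. The matches are letters in these windows and say nothing of what binds there.

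Il1r2 encodes a receptor that binds IL-1 and has no signalling domain. Its level was 77.8, 106 and 109 CPM in the WT libraries and 256, 259 and 254 CPM in the KO libraries. Every KO library was above every WT library, and the coefficient of variation was 0.989% in KO and 17.8% in WT libraries. The log2 fold change was 1.39 ± 0.14 (SE; 95% interval 1.05 to 1.73; n = 3 per group), with an unadjusted p of 3.2e-05 and an adjusted p of 0.141 by edgeR's quasi-likelihood test. Of the 14164 genes tested, 16.2% had groups that did not overlap, 8.2% with all KO libraries higher.

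The log2 fold change of Il1r2 in KO against WT lay between 1.25 and 1.48 when any 1 library was left out, and was 1.40 without the library labelled KO 15. Of 17 alternatives 5 called it, with adjusted p from 8.2e-17 (DESeq2) to 0.697 (without KO 14). It passed when only the 10528 genes averaging 5 CPM or more were tested (adjusted p = 0.0406, where 0.0475% of genes passed) and with the 4723 that averaged 50 CPM or more (adjusted p = 0.00154, where 1.16% passed). Beside it, 4 of 5 epithelial markers were listed and summed to 49.1 to 117 CPM in WT and 17.8 to 26.1 CPM in KO libraries, with Epcam at −1.40 on the log2 scale (adjusted p = 0.186). Of 5 endothelial and fibroblast markers Pecam1 was listed, at 18.9 to 22.6 CPM in WT and 24.5 to 44.4 CPM in KO, and the part of either list was not tested. Markers of myeloid cells, which also carry this receptor, differed in level between lists. Of 7 neutrophil markers, Ly6g alone was listed, summing to at most 0.1 CPM in WT and 0.806 CPM in KO libraries, and S100a8, S100a9 and Csf3r were not listed. Of 8 macrophage and monocyte markers, 3 were listed, summing to 6.31 to 19.5 CPM in WT and 7.24 to 7.39 CPM in KO. Of 8 mast cell and basophil markers, 2 were listed, at 0 to 0.6 CPM in WT and 0 to 6.73 CPM in KO libraries. Dendritic cell markers (2 of 6 listed) were higher, summing to 58.1 to 78.6 CPM in WT and 52.9 to 61.8 CPM in KO. Nearly all of that sum was Xcr1. The 1 eosinophil marker listed of 6 was at 0 to 3.71 CPM in WT and 1.66 to 10.5 CPM in KO. The part of these myeloid lists was not tested.

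Among the sorted libraries Il1r2 was at 193, 228 and 211 CPM in the LAIR-1+ libraries and at 177, 182 and 185 CPM in the LAIR-1- libraries. All LAIR-1- libraries were below all LAIR-1+ libraries, by a small margin. The log2 fold change was −0.22 ± 0.08 (SE; 95% interval −0.38 to −0.05), which did not pass (adjusted p = 0.178), and 21.0% of all genes tested had groups that did not overlap, 11.3% with all LAIR-1- libraries lower.

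Tested directly in 1 edgeR fit of the 12 libraries, the log2 fold change of Il1r2 in KO against WT exceeded that in LAIR-1- against LAIR-1+ by 1.62 ± 0.17 (SE; 95% interval 1.25 to 1.98), with an adjusted p of 0.00294. Of 15108 genes tested in this way, 0.192% passed, and Il1r2 was the only one of the 8 members among them. All 20 alternatives kept this call, with adjusted p between 1.05e-17 and 0.0253 and a difference of 1.47 to 1.71. This fit shares 1 estimate of the spread between experiments of unlike spread. The experiments also differed in sex-linked transcripts: Xist was at 57.6 to 91.6 CPM in the WT and KO libraries and at most 0.368 CPM in the sorted ones, where Ddx3y, a Y-linked gene, was at 41.5 to 55.3 CPM. The part of these in the difference was not tested. Set side by side, with each table scaled on its own, the Il1r2 level of the sorted WT cells (177 to 228 CPM) lay between those of the WT (77.8 to 109 CPM) and KO (254 to 259 CPM) libraries.

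**Figure D2:**
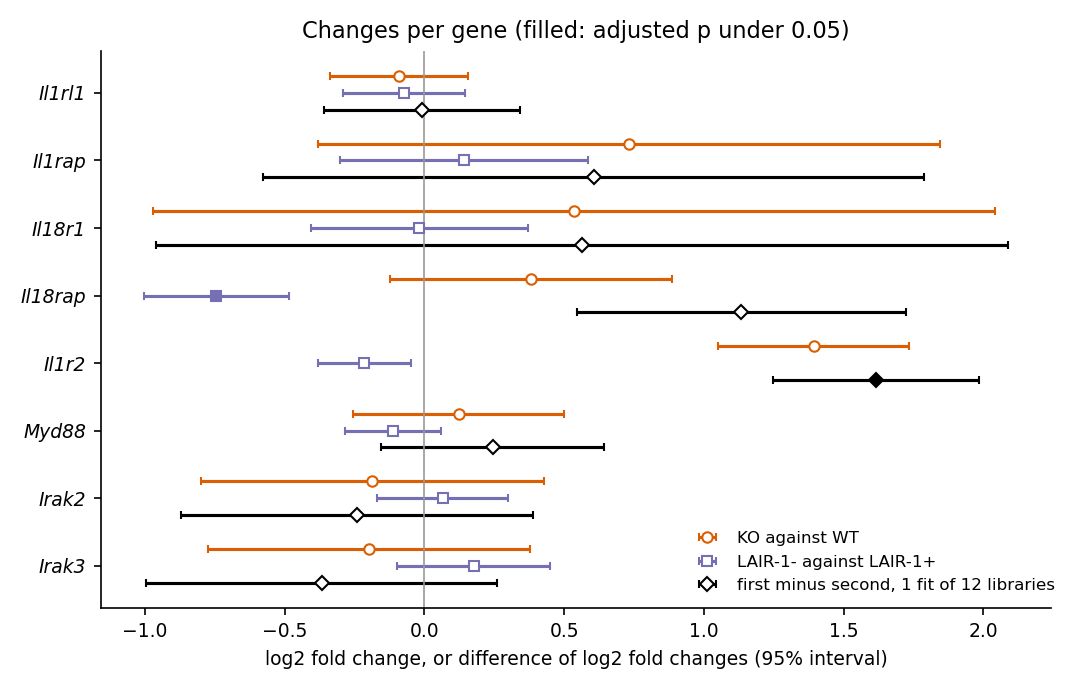
Log2 fold change of each member tested (horizontal axis) in KO against WT (circles), in LAIR-1- against LAIR-1+ (squares), and the first minus the second from 1 fit of the 12 libraries (diamonds); bars are 95% intervals from edgeR (n = 3 per group) and filled symbols have an adjusted p under 0.05. Only Il18rap in the sorted cells (−0.74) and the difference for Il1r2 (1.62) are filled, and the intervals of the WT and KO experiment are wider for all 8 genes.

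Il18rap and Il18r1 encode the accessory and the ligand-binding chain of the receptor for IL-18. Il18rap was at 125, 135 and 107 CPM in the LAIR-1+ libraries and at 77.4, 60.3 and 81.2 CPM in the LAIR-1- libraries. Every LAIR-1- library was below every LAIR-1+ library. Il18rap fell by 0.74 ± 0.12 on the log2 scale (SE; adjusted p = 0.00418), to 0.597 of the LAIR-1+ level (95% interval 0.498 to 0.715). It passed with each library left out (adjusted p from 0.00358 to 0.0261) and in 16 of 17 alternatives, the exception being the fit of all 12 libraries with 1 shared spread (adjusted p = 0.219, the highest; 1.52e-07, with DESeq2, was the lowest).

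Markers of other cells moved with this comparison in both directions. The 4 listed of 6 NK cell and ILC1 markers summed to 3.86 to 7.10 CPM in LAIR-1+ and 1.21 to 3.26 CPM in LAIR-1- libraries. Tbx21 of that list was at 0.853 to 1.15 and 0 to 0.801 CPM. All 8 mast cell and basophil markers were listed and summed to 265 to 339 CPM in LAIR-1+ and 93.4 to 132 CPM in LAIR-1- libraries, with Tpsab1 alone at 211 to 215 and 43.0 to 68.9 CPM and the basophil gene Mcpt8 the other way, at 1.80 to 3.57 and 3.52 to 6.62 CPM. The 7 listed of 8 macrophage and monocyte markers summed to 64.2 to 164 and 6.30 to 36.6 CPM, and the 6 listed of 7 neutrophil markers to 4.57 to 9.71 and 0 to 1.26 CPM, in the same order, with S100a8, S100a9 and Csf3r at 0 in every LAIR-1- library. Other lists were higher in LAIR-1- than in LAIR-1+ libraries: B cell (3 of 5 listed) at 11.7 to 14.2 against 6.96 to 10.8 CPM, ILC3 (2 of 4) at 4.68 to 7.66 against 2.56 to 4.05 CPM, and eosinophil (4 of 6) at 7.38 to 10.9 against 1.85 to 4.25 CPM. Endothelium and fibroblast markers (3 of 5 listed), nearly all Pecam1, were at 38.5 to 40.7 against 23.4 to 26.5 CPM. T cell markers (6 of 7 listed) were at 67.7 to 85.7 against 55.5 to 68.2 CPM, with overlapping ranges. Dendritic cell markers (3 of 6) were lower, at 37.6 to 39.3 against 41.1 to 51.1 CPM. Epithelial markers (5 of 5) overlapped, at 24.4 to 31.9 against 24.5 to 98.6 CPM, and 3 passed, 1 of them as higher. The part of these lists, and of the 4 ILC2 markers that passed, in the lower Il18rap was not tested. In these bulk libraries fewer cells of a type and less RNA per cell cannot be told apart.

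In WT and KO cells Il18rap was at 88.8, 155 and 145 CPM in WT and at 180, 153 and 174 CPM in KO libraries. The groups overlapped, since WT 10 was above KO 14. The log2 fold change of 0.38 ± 0.21 did not pass (95% interval −0.12 to 0.89; adjusted p = 0.707). The difference between the comparisons was 1.13 ± 0.27 on the log2 scale and did not pass (adjusted p = 0.189), although 2 of 20 alternatives called it, the filter at 50 CPM (adjusted p = 0.0373, where 1.11% of genes passed) and DESeq2 (adjusted p = 0.00454, where 1.5% passed). The highest adjusted p over the alternatives was 0.495.

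Il18r1, the partner chain, was lower per kilobase of exon, at a mean of 1.52 against 18.1 CPM per kilobase of Il18rap in LAIR-1+ libraries. It was at 7.67, 6.96 and 7.41 CPM in LAIR-1+ and at 7.37, 6.25 and 8.08 CPM in LAIR-1- libraries, with overlapping groups and a log2 fold change of −0.02 ± 0.18 (95% interval −0.41 to 0.37; adjusted p = 0.979). In WT it was at 9.11, 2.54 and 15.4 CPM and in KO at 14.4, 8.56 and 16.2 CPM. WT 10 stood low, the groups overlapped, and the log2 fold change of 0.53 ± 0.63 had a 95% interval of −0.97 to 2.04. The ratio of Il18rap to Il18r1 CPM, not corrected for transcript length, was 14.5 to 19.5 in LAIR-1+ and 9.65 to 10.5 in LAIR-1- libraries.

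Il1rl1 encodes the receptor of the cytokine that all the mice received, and it did not pass in either comparison. Its level was 1070, 1141 and 969 CPM in WT and 916, 1131 and 937 CPM in KO libraries. The groups overlapped, and the log2 fold change was −0.09 ± 0.10 with a 95% interval of −0.34 to 0.16 (adjusted p = 0.899). In LAIR-1+ libraries it was at 726, 835 and 658 CPM and in LAIR-1- libraries at 715, 617 and 777 CPM. These groups overlapped as well, with a log2 fold change of −0.07 ± 0.10 (95% interval −0.29 to 0.14; adjusted p = 0.811). The difference between the comparisons was −0.01 ± 0.16 (95% interval −0.36 to 0.34). GENCODE lists complete Il1rl1 proteins between 337 and 567 residues long; the gene is known to make a membrane form and a shorter soluble form that binds IL-33, and these gene counts pool them.

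Il1rap, the accessory chain that ST2 and the IL-1 receptor share, was low. It was at 20.8, 7.25 and 8.81 CPM in WT and 26.0, 21.0 and 14.2 CPM in KO libraries. WT 9 was near the KO libraries and the groups overlapped, with a log2 fold change of 0.73 ± 0.47 (95% interval −0.38 to 1.84; adjusted p = 0.757). Between the sorted fractions it was at 10.7, 10.4 and 10.0 CPM in LAIR-1+ and 12.9, 7.66 and 13.6 CPM in LAIR-1- libraries. LAIR-1- 8 was the lowest of the 6 and the groups overlapped (log2 fold change 0.14 ± 0.20, adjusted p = 0.818).

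Il1r1, the signalling receptor for IL-1, was barely detected. It had, in the sorted libraries, 3, 6 and 8 estimated counts in the LAIR-1+ and 9, 7 and 17 in the LAIR-1- libraries, which is 0.142, 0.239 and 0.310 against 0.473, 0.367 and 0.592 CPM. The groups did not overlap, but the gene did not reach the filter on low counts and so was not among the 8 members tested. Without that filter its log2 fold change was 1.03 ± 0.70 (adjusted p = 0.623; 0.454 to 0.752 over the 5 alternatives that tested it). The decoy chain outnumbered the signalling chain per kilobase of exon. In LAIR-1+ libraries the mean level was 110 CPM per kilobase for Il1r2 and 0.036 for Il1r1.

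Set per kilobase of merged exons, Il1rl1 and Il1r2 had the highest means in all 4 groups. Their ranges were apart in WT libraries only. Merged exons pool all annotated transcripts of a gene, at 6.89 kb for Il1rl1, 1.91 kb for Il1r2 and 11.36 kb for Il1rap. The order may depend on this choice of length, and no other length was tried. In WT libraries Il1rl1 led with a mean of 154 CPM per kilobase, followed by Il1r2 at 51.2 and Myd88 at 47.1, whose ranges overlapped. In KO libraries Il1rl1 at 144 and Il1r2 at 134 CPM per kilobase overlapped, with Myd88 next at 51.3. Among the sorted libraries the ranges of Il1r2 and Il1rl1 overlapped as well, at means of 110 and 107 CPM per kilobase in LAIR-1+ libraries, and with ranges of 92.5 to 97.1 and 89.6 to 113 in LAIR-1- libraries. Il1rap came last of the 8 in all 4 groups, from 0.912 to 1.80 CPM per kilobase; its range overlapped that of Il18r1 in WT and KO libraries and not in the sorted ones. By CPM, the ratio of Il1rl1 to Il1r2 was 8.85 to 13.8 in WT, 3.58 to 4.36 in KO, 3.12 to 3.76 in LAIR-1+ and 3.39 to 4.19 in LAIR-1- libraries.

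Myd88, the adaptor of the signalling receptors of the family, was at 101, 145 and 119 CPM in WT and 119, 147 and 131 CPM in KO libraries. The groups overlapped, with a log2 fold change of 0.12 ± 0.16 (95% interval −0.26 to 0.50; adjusted p = 0.917). It was at 89.5, 96.2 and 102 CPM in LAIR-1+ and 91.2, 88.2 and 86.8 CPM in LAIR-1- libraries. These groups also overlapped, with a log2 fold change of −0.11 ± 0.08 (95% interval −0.29 to 0.06; adjusted p = 0.563).

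Irak2 encodes a kinase-like member of the complex that sustains signalling, and Irak3 encodes IRAK-M, known as an inhibitor of it in macrophages. Irak2 was at 77.1, 73.8 and 61.7 CPM in WT and 83.7, 41.9 and 61.2 CPM in KO libraries. Irak3 was at 110.5, 108 and 103 CPM in WT and 126, 62.4 and 91.2 CPM in KO libraries. KO 14 was the lowest and KO 13 the highest of the 6 for both genes. Neither passed: the log2 fold change was −0.19 ± 0.26 for Irak2 (adjusted p = 0.926) and −0.20 ± 0.24 for Irak3 (adjusted p = 0.908), and both signs turned without KO 14, to 0.03 and 0.02.

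Between the sorted fractions Irak2 was at 37.3, 44.2 and 44.0 CPM in LAIR-1+ and 40.0, 44.4 and 46.8 CPM in LAIR-1- libraries, with overlapping groups (log2 fold change 0.06 ± 0.11, adjusted p = 0.845). Irak3 was at 27.7, 29.9 and 24.1 CPM in LAIR-1+ and 35.04, 28.2 and 29.1 CPM in LAIR-1- libraries. LAIR-1- 7 was the highest of the 6, the groups overlapped, and the log2 fold change was 0.18 ± 0.13 (adjusted p = 0.581). Side by side, with the tables scaled separately and no test made across them, Irak3 was at 62.4 to 126 CPM in the WT and KO libraries and 24.1 to 35.04 CPM in the sorted ones.

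Over the 12 libraries, with each group centred on its mean, log2 CPM of Irak2 and Irak3 had a Pearson r of 0.78, the highest of the 28 pairs of members, and 0.80 when centred by experiment. In the 6 WT and KO libraries both genes put the libraries in the same order, and in the narrow range of the sorted libraries they did not. Il1r2 and Il18rap followed with an r of 0.75 centred by group and 0.59 centred by experiment. These values are descriptions over 12 points that share their library's scaling and, in part, their group.

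**Figure D3:**
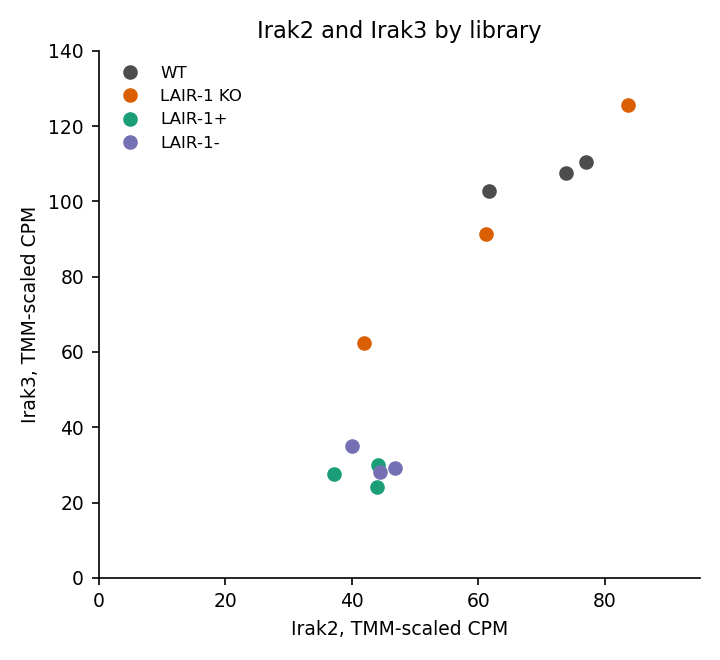
Irak2 (horizontal axis) against Irak3 (vertical axis), TMM-scaled CPM, with each point 1 of the 12 libraries coloured by group. The KO libraries spread from 41.9 to 83.7 CPM of Irak2 and from 62.4 to 126 CPM of Irak3, while the 6 sorted libraries stay between 24.1 and 35.04 CPM of Irak3; the 2 experiments were scaled separately.

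Among 9505 genes averaging 5 CPM or more in both tables, those most like Il1rl1 over the 12 libraries, centred by experiment, included Dock2 (r = 0.91), Pdha1 (0.89), Arih1 (0.88) and Ncaph (0.87). Those most like Il1r2 were Ccdc50 (r = 0.96), Il5 (0.96), Recql4 (0.96), Gm42047 (0.96) and Bop1 (0.95). Centring by experiment keeps the difference between groups, so genes higher in KO, as Il1r2 was, rank high by construction. The Il5 change below is therefore not separate from its place in this ranking. Il5, a type 2 cytokine of ILC2s, was at 4400 to 5374 CPM in WT and 7592 to 9845 CPM in KO libraries, with a log2 fold change of 0.86 that did not pass (adjusted p = 0.176). Its log2 fold change in the sorted cells was −0.14 (adjusted p = 0.387).

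In the sorted cells Il18rap fell by 0.74 on the log2 scale, while Il18r1, 14507 bases away, was at −0.02 and Il1rl1 at −0.07. In KO against WT, Il1r2 was at 1.39, Il1rl2 at 1.54 ± 1.89, Il18r1 at 0.53, Il18rap at 0.38 and Il1rl1 at −0.09. Within 500000 bases of the cluster's ends, 10 genes were tested in the sorted cells and Il18rap alone passed. Of the 10 log2 fold changes 9 were below 0, some within their SE of 0, with Il1rl2 at −0.58 ± 0.29. Over all genes tested in the sorted cells, 51.0% were above 0. For KO against WT, 9 genes were tested there, 0 passed and 2 had an unadjusted p under 0.05, as did 1186 of all 14164 genes tested. Of these 9 log2 fold changes, 5 were above 0 and 4 below. Among these 9 genes DESeq2 was read only for the members and Il1rl2, and it called Il1r2 alone. Gm16894, an antisense RNA inside the span of Il1r2 (chr1:40076228-40085851, minus strand), averaged 0.25 and 0.983 CPM in WT and KO and 1.66 and 1.10 CPM in LAIR-1+ and LAIR-1- libraries. Whether the counting used strand is not given in the sources used here, so reads of it and of Il1r2 where they overlap may not be separable.

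**Figure D4:**
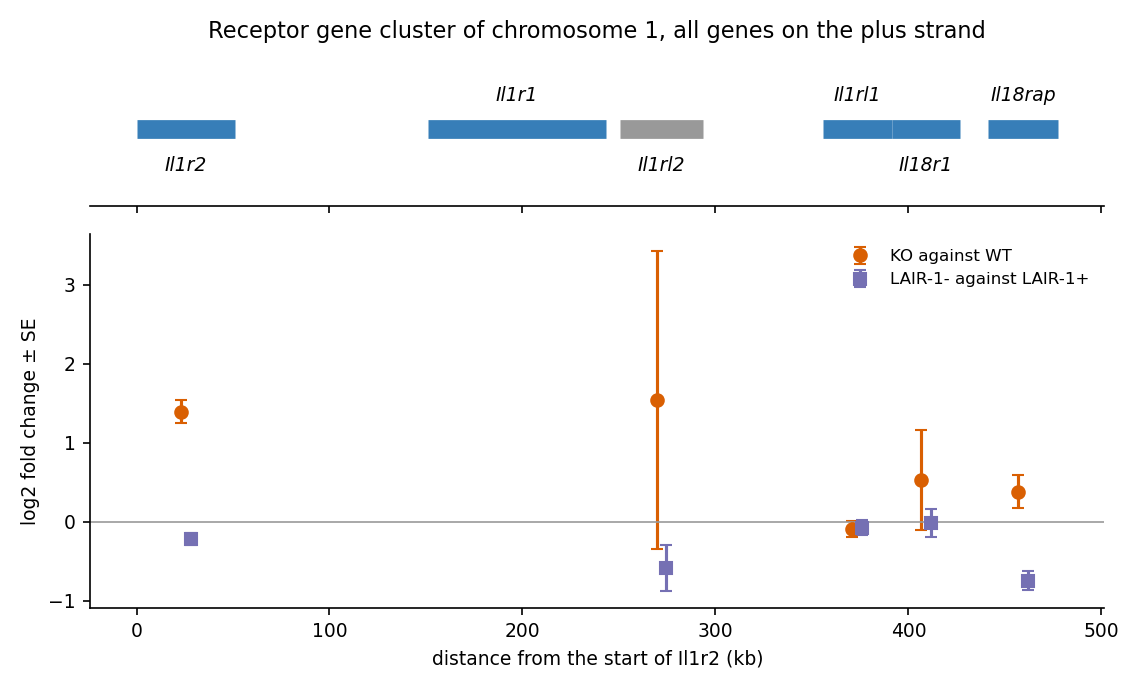
Map of the receptor cluster (top, members in blue, distance from the start of Il1r2 in kb on the horizontal axis) above the log2 fold change of each protein-coding gene tested there, in KO against WT (circles) and LAIR-1- against LAIR-1+ (squares), with bars of 1 SE (n = 3 per group). Il1r2 is at 1.39 and −0.22, and Il18rap at 0.38 and −0.74, with Il1rl1 near 0 in both.

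The rest of the pathway was read from lists of genes. In KO against WT, 0 of the 46 genes tested in 6 lists passed with edgeR or DESeq2. At an unadjusted p under 0.05, 3 of them passed, and 1186 of all 14164 genes tested did. The IL-1 family ligands were near or at 0: of 15 ligands and soluble inhibitors, 3 were listed, and Il33 was at 7.21 CPM in KO 13 alone, at 0.15 CPM in WT 11 and at 0 in the other 4 libraries. In the sorted cells 7 of 15 were listed, and Il33 was at most 0.522 CPM and Il1b, an IL-1 receptor ligand, at most 1.202 CPM. Il18bp, which encodes the soluble inhibitor of IL-18, was at 2.01 to 3.79 CPM in the WT and KO libraries, and Il1rn, the antagonist of IL-1, at 0 to 5.45 CPM in the sorted ones.

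In LAIR-1- against LAIR-1+ cells, 3 of the 48 genes tested in these lists passed, which is 6.25%, near the 4.01% of all genes. Zfp36, which encodes an RNA-binding protein that promotes decay of cytokine mRNAs, was at 20.5, 21.1 and 20.5 CPM in LAIR-1+ and 31.7, 37.2 and 32.0 CPM in LAIR-1- libraries. It rose by 0.70 ± 0.11 on the log2 scale (adjusted p = 0.0038) with no overlap between groups. Of the 11 induced feedback genes it was the 1 called. The list's median log2 fold change was −0.01, against 0.01 over all genes tested, with 5 above 0 and 6 below. Tnfaip3, chosen after its values were seen, went the other way from Zfp36, at 19.9 to 25.6 and 13.3 to 18.5 CPM. Its log2 fold change of −0.57 ± 0.15 did not pass (edgeR quasi-likelihood test, adjusted p = 0.0627), and 4 of 17 alternatives called it. Nfkbia, which encodes the NF-κB inhibitor IκBα, was at 67.0 to 84.8 and 83.9 to 100.2 CPM (0.24 ± 0.10, adjusted p = 0.297), and Cyld and Tnip1 were at 0.02 and −0.01.

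Tlr2, a Toll-like receptor that also signals through MyD88, was at 15.1, 19.2 and 16.7 CPM in LAIR-1+ and 8.00, 10.2 and 9.89 CPM in LAIR-1- libraries. It fell by 0.86 ± 0.16 on the log2 scale (adjusted p = 0.009) with no overlap. Of 13 genes in its list 8 were listed and 5 tested, 1 was called, and all 5 log2 fold changes were below 0, with a median of −0.57. Tlr1, its partner chain, was at 32.3 to 35.3 and 17.5 to 26.1 CPM (−0.57 ± 0.15, adjusted p = 0.0502), Tlr6 at 8.41 to 11.4 and 5.64 to 7.15 CPM (−0.71 ± 0.19, adjusted p = 0.06), and Tlr4 at −0.41 ± 0.28. By the sums given for Il18rap, the macrophage, neutrophil, mast cell and NK cell lists moved the same way. The B cell, ILC3, eosinophil and endothelium lists moved the other way, and the part of any of these cells was not tested. Zfp36 and Tlr2 each passed in 15 of the 16 alternatives that tested them, including every one that left out a library, and were lost in the fit of all 12 libraries.

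Map2k4, a kinase upstream of JNK, was at 92.3, 98.1 and 88.2 CPM in LAIR-1+ and 73.2, 76.5 and 73.4 CPM in LAIR-1- libraries. It fell by 0.32 ± 0.08 on the log2 scale (adjusted p = 0.0407), but passed in 6 of 17 alternatives and in none of the 6 that left out a library. It was 1 of 11 genes of the IκB kinase and p38/JNK list, whose median was −0.16; Map2k3, Mapkapk2 and Mapk14 were at −0.11, −0.05 and −0.17. Of 20 Myddosome and TRAF6 genes, 17 were tested and 0 called, with 0 also by DESeq2 and a median of 0.09. At an unadjusted p under 0.05, 2 of them passed, and 2196 of all 14261 genes tested did. Ube2n, Ube2v1 and Map3k3, the list's genes of highest CPM, had log2 fold changes of 0.11, 0.00 and −0.01. Sigirr, an inhibitory receptor of the family, was at 95.6 to 108 CPM in LAIR-1+ and 96.6 to 119 CPM in LAIR-1- libraries (0.03 ± 0.09, adjusted p = 0.932).

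**Figure D5:**
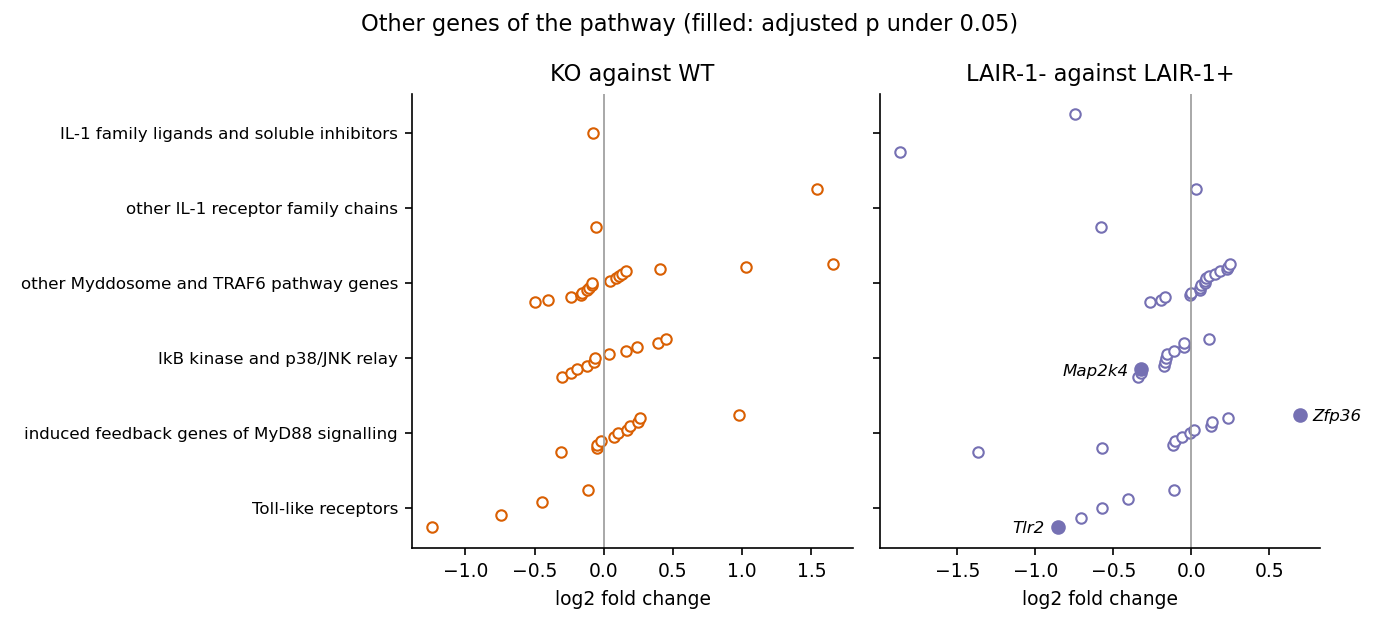
Log2 fold change (horizontal axis) of each tested gene of 6 lists (rows) in KO against WT (left) and LAIR-1- against LAIR-1+ (right), with filled points at an adjusted p under 0.05. The left panel has no filled point, and the right one has Zfp36 at 0.70, Map2k4 at −0.32 and Tlr2 at −0.86.

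In KO against WT the same lists had medians between −0.60 (Toll-like receptors, 4 tested) and 0.74 (other receptor chains, 2 tested), against 0.00 over all genes. Tlr2 was at 30.3 to 48.4 CPM in WT and 12.5 to 62.9 CPM in KO libraries (−0.12 ± 0.53), Nfkbia at 130 to 141 and 153 to 170.4 CPM (0.26 ± 0.09, adjusted p = 0.516), and Sigirr at 112 to 149.8 and 97.7 to 139.9 CPM (−0.06 ± 0.18). Map2k3, the gene of highest CPM in the kinase list, was at 317 to 418 and 333 to 394 CPM (−0.06 ± 0.12), and Ube2v1 at 221 to 251 and 209 to 235 CPM (−0.09 ± 0.09).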

How the data were processed

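RNA sequencing tables of 12 libraries of mouse lung ILC2s were used. The authors deposited, for each of 2 experiments, estimated counts per gene and CPM, counts scaled to a library total; 47.9% and 44.4% of the estimated counts were not whole within 0.001. The submitters' processing notes name STAR 2.5.3a, Partek, bcl2fastq 2.17.1.14 and mm10; the counting tool, its annotation and its use of strand are not stated in any source used here. Every value column was used.

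Each experiment was fitted on its own: estimated counts were rounded, filterByExpr removed low genes, TMM gave the scaling, and edgeR 4.0.16 in R 4.3.3 tested groups by its quasi-likelihood method. P-values were adjusted after Benjamini and Hochberg across every gene in the fit, and 0.05 was the threshold. The difference between the comparisons came from 1 fit of 4 group means. CPM in the text carries the TMM scaling; a positive log2 fold change means higher in KO, or in LAIR-1- cells. Levels per kilobase used merged exons of GENCODE M21, in place of the coding length first planned. Protein comparisons were not analysed here. The tests were tried on simulated data with known changes. The members, lists and marker lists were chosen with earlier results of these data known. Named were all members, every list gene past the threshold with up to 3 others of highest mean CPM, and the 5 genes most like Il1rl1 and Il1r2, of which 1 is not reported here.

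Alternatives were no filter, size factors by median of ratios, scaling by totals only, means of at least 5 or 50 CPM, robust estimation of the spread, DESeq2 1.42.0, limma-voom with quality weights, limma-trend on log2(CPM + 1) and log2(CPM + 0.1) of the authors' CPM (limma 3.58.1), all 12 libraries in 1 fit, and each library left out; counts per pathway list under these were added after seeing the data. Depth limits Il1r1 and the ligands, at few or no counts.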

Additional observations from a re-analysis of the deposited data

Results flagged for a closer look

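The log2 fold change of Il1r2 in KO against WT exceeded that in LAIR-1- against LAIR-1+ by 1.62 ± 0.17, a difference between the experiments that passed its own test (edgeR quasi-likelihood test of the 12 libraries, adjusted p = 0.00294). Il1r2 was higher in 3 of 3 KO libraries than in every WT library and lower in 3 of 3 LAIR-1- libraries than in every LAIR-1+ library. Of all genes tested, 16.2% and 21.0% had groups without overlap in these comparisons. Neither change of Il1r2 passed in its own comparison (edgeR quasi-likelihood test, adjusted p = 0.141 and 0.178). The fit of 12 libraries shares 1 estimate of the spread between experiments of unlike spread (biological coefficient of variation 0.505 and 0.135). In that fit KO against WT alone gave Il1r2 an adjusted p of 0.000469 (edgeR quasi-likelihood test), where 1.76% of genes passed. The library labelled KO 15 held Lair1 at 3.28 CPM, near WT 9, and without it the difference was 1.61 (adjusted p = 0.00648; 1.05e-17 to 0.0253 over the alternatives). The WT and KO experiment and the sorted experiment also differed in Xist and Ddx3y, whose part was not tested.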

How the results depend on the processing

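In KO against WT the main count was 1 gene and 0 members. With a mean of at least 5 CPM it was 5 genes and 1 member, at 50 CPM 55 and 1, with DESeq2 308 and 1, with limma-voom 2 and 1, and with all 12 libraries in 1 fit 266 and 1, the member being Il1r2 each time. Leaving out 1 library gave 0 to 0 genes. In LAIR-1- against LAIR-1+, 572 genes and 1 member became 249 genes at 50 CPM, where fewer genes are tested, 54 genes and 0 members with all 12 libraries in 1 fit, and 333 to 516 genes with 1 library left out. For the difference, 29 genes and 1 member became 51 and 2 at 50 CPM, 226 and 2 with DESeq2, and 3 to 235 genes with 1 library left out. Between the sorted fractions the Toll-like receptor list had 0 to 3 calls over the alternatives, the feedback list 0 to 2, and the kinase and ligand lists 0 to 1. DESeq2 called 856 genes between the sorted fractions; it gives no adjusted p for Il18r1 and Il1rap in KO against WT.

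The log2 values that changed sign were all of members that passed nowhere in that comparison, and the cause was not tested. In KO against WT these were Irak2 and Irak3 without KO 14; with 1 library left out Irak2 ranged from −0.462 to 0.0321 and Irak3 from −0.48 to 0.0206. In the sorted cells Il18r1 was at 0.00827 with library totals alone, 0.00618 with limma-voom and −0.11 to 0.0722 with 1 library left out, Il1rap ranged from −0.0118 to 0.354, Il1rl1 from −0.152 to 0.022 and Irak2 from −0.0125 to 0.128. The difference for Il1rl1 was 0.0342 with limma-voom and −0.11 to 0.0527 with 1 library left out. No paired analysis was possible because the groups compared share no replicate number. Low counts limit Il1r1, Il18r1 and Il1rap, and the wide spread of the WT and KO libraries limits every call there.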

Other observations

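Mfsd9, a gene of unassigned role near the receptor cluster, was chosen after its values were seen. It was at 7.34, 6.14 and 3.05 CPM in the WT libraries and at 0 in all 3 KO libraries, at least 112-fold lower against a floor of 3 counts over the KO group, which covers counting error only; its adjusted p of 0.186 (edgeR) did not pass. In the sorted cells it was at 2.13, 2.70 and 3.10 CPM in LAIR-1+ and 1.10, 0.84 and 1.95 CPM in LAIR-1- libraries (adjusted p = 0.216).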
